A study of Mus musculus with 9 samples.

Results

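Cell lines grown back from recurrent MYCCaP tumours of castrated mice that received vehicle were compared with the parental MYCCaP line. MYCCaP cells were derived from a prostate tumour that formed in a mouse with a MYC transgene, which a probasin promoter drives in prostate epithelium. The comparison was defined by the labels: all 3 vehicle lines, labelled biological replicates, and all 3 parental arrays, labelled technical replicates of 1 line. This makes 4 of the series' 7 samples and 6 of its 9 arrays. The parental cells were raised with dihydrotestosterone (DHT), the active androgen, and the vehicle lines were grown without it. Growth as a tumour in a mouse, castration, vehicle, return to culture and the androgen of the medium therefore all differ between the groups and cannot be told apart. The remaining 3 lines came from mice that received AZD1208, an inhibitor of the PIM kinases, and were also grown without DHT. All lines descend from MYCCaP. Whether each line came from a mouse of its own, and the strain and age of the mice, are not given in these sources, so a p-value measures the spread between these lines only.

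Prostate cells depend on androgen, which acts through the androgen receptor, a transcription factor, and castration removes most of it. Tumours shrink after castration and can grow again, a state called castration-recurrent. MYC, the oncogene of this model, pairs with MAX to bind the E-box and to raise genes of ribosome production and of the cell cycle, while the MXD proteins pair with MAX and oppose MYC. PIM kinases are survival kinases that cooperate with MYC in prostate tumours. Keratins are the intermediate filaments of epithelial cells, and their mixture marks layers and states of an epithelium.

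Affymetrix Mouse Gene 2.0 ST arrays read the RNA of the cultured cells, and all levels below are log2 intensities. A level compares 1 gene between samples and not 1 gene with another. The array medians lay between 6.22 and 6.36. Of 22180 genes with a probe set of their own, 15526 stayed after the 30% with the lowest mean (below 5.81) were left out. The median SD per gene was 0.0905 over the 3 parental arrays, which is technical, and 0.190 over the 3 vehicle lines. Vehicle 1 stood apart from the other two lines: 1161 genes (7.48%) lay at least 2-fold from the parental mean there, 717 above and 444 below, against 271 (1.75%) in vehicle 2 and 197 (1.27%) in vehicle 3. Counts over gene lists are therefore also given for vehicle 2 and 3 alone, where 36.3% of all genes were higher and 32.2% lower in both lines. Some probe sets have equal deposited values on several arrays, as Igfbp5 has in vehicle 2 and vehicle 3: 14254 of 41345 (34.5%) had such a tie on at least 1 pair of arrays. The effect of ties on the spread was not tested.

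Markers of the labelled cell type were read first. Foxa1, a pioneer factor of luminal prostate cells, had a mean of 11.84 on the parental arrays and 11.74, 12.13 and 11.84 in vehicle 1, 2 and 3. Hoxb13, a prostate-restricted homeobox factor, stood at 8.86 and 8.92, 8.45 and 8.82. Epcam, the epithelial adhesion protein, was below the dim limit, with a parental mean of 4.99 and 4.91, 4.86 and 5.06 in the vehicle lines, and so was Pbsn, the androgen-driven secretory protein probasin, at 4.04 and 4.36, 4.21 and 4.21. Vim, the mesenchymal filament vimentin, was at 13.27 in the parental line and 13.65, 13.59 and 13.62 in the vehicle lines. Krt4 and Krt6a, keratins described below, were bright in the parental line. Of 33 genes of tight and adherens junctions, 27 passed the dim limit, as did 15526 of all 22180 genes. The 27 junction genes had a median difference of -0.00499.

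No gene passed the test of vehicle against parental. With limma and Benjamini-Hochberg adjustment over 15526 genes, 0 genes were higher (0%) and 0 lower (0%) at an adjusted p of 0.05, and the smallest adjusted p was 0.811, for Igfbp5. At an unadjusted p of 0.05, 297 genes were higher and 60 lower. The parental group is 1 sample, which gives the test no spread of its own, and an exact one-sided permutation of 3 lines against 1 sample cannot go below 0.25. The genes are therefore described by size. All 3 vehicle lines lay above the parental mean for 3944 genes (25.4%) and below it for 4053 (26.1%). A stricter rule asked every vehicle line to be at least 2-fold from the parental mean on one side; 64 genes were higher by it (0.412%) and 15 lower (0.0966%). Each of these genes also lay beyond all 3 parental arrays. That follows largely from the rule, as the median range of the parental arrays was 0.172. Among all genes tested, every vehicle line lay above every parental array for 2439 (15.7%) and below for 1692 (10.9%). The line nearest the parental mean was 2.01- to 14.98-fold away for the higher genes and 2.10- to 11.7-fold for the lower ones. Copz2, Anxa8 and Mgp lay just inside the rule, with nearest lines 1.01, 1.01 and 1.02 above on the log2 scale. Lcn2, Pdgfra and Sesn3 lay just outside, at 0.999, 0.997 and 0.994. On the lower side Ly6c1, Krt78 and Bcat1 were just inside at -1.07, -1.15 and -1.18, and Tmem54, Wfdc12 and Elmod1 just outside at -0.98, -0.96 and -0.95.

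The genes that stood highest in every vehicle line included genes for secreted proteins, surface receptors and enzymes. Igfbp5, a secreted binder of insulin-like growth factors, read 7.20, 7.47 and 7.06 on the parental arrays and 12.19, 11.14 and 11.14 in vehicle 1, 2 and 3. All vehicle lines lay far above all parental arrays, and the mean of 11.49 ± 0.60 (SD, n = 3) was 19.1-fold the parental level (log2 difference 4.25, SE 0.51, limma adjusted p 0.811, unadjusted 5.22e-05). Hp, the plasma protein haptoglobin that binds free haemoglobin, read 6.95, 6.39 and 6.85 on the parental arrays and 11.52, 10.25 and 10.13 in vehicle 1, 2 and 3. Again no line came near the parental arrays, and the difference was 3.90 (SE 0.55, 14.95-fold). Cdcp3 had the largest mean difference of the 15 higher genes named: its parental arrays read 7.11, 7.16 and 7.04, and its vehicle lines read 13.34, 10.79 and 11.36, 26.5-fold higher on average (SE of the log2 difference 1.10). Vehicle 1 was the highest of the lines for these genes, and vehicle 2 and 3 lay close together.

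Matrix genes were among them. Postn, the matrix protein periostin, read 5.17, 5.55 and 5.37 on the parental arrays and 9.30, 10.53 and 7.86 in vehicle 1, 2 and 3, a 14.6-fold mean difference with an SE of 1.72 on its log2 difference of 3.87. The highest line was vehicle 2 and the lowest vehicle 3. Col12a1, a collagen of the fibril surface, was 5.15-fold higher, at 10.39, 9.78 and 8.998 in the 3 lines against a parental mean of 7.36. Ddr2, a receptor kinase for fibrillar collagen, was 5.68-fold higher, at 9.50, 8.01 and 8.22 against 6.07. Lrp1, a large endocytic receptor, was 7.39-fold higher, at 10.69, 9.36 and 9.97 against 7.12.

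A further set coded for enzymes and membrane proteins of metabolism. Adh1, a class I alcohol dehydrogenase that also oxidises retinol, read 6.92, 7.09 and 7.05 on the parental arrays and 12.16, 9.62 and 9.88 in vehicle 1, 2 and 3, with vehicle 1 far above the other two lines. Its mean difference was 3.53 (11.6-fold) on the brightest probe set and 1.82 as the mean of the gene's probe sets. Steap4, a metalloreductase of iron and copper, was 8.22-fold higher, at 12.64, 11.22 and 10.66 against a parental mean of 8.47. Dpep1, a membrane dipeptidase that cleaves cysteinyl-glycine and leukotrienes, was 6.16-fold higher (12.50, 11.49 and 11.75 against 9.29). Plpp3, a phosphatase of lysophosphatidic acid at the cell surface, was 6.45-fold higher, and its lines stood close together at 9.71, 9.40 and 9.67 against 6.90. Gdpd2, a glycerophosphodiester phosphodiesterase, was 4.32-fold higher at 10.44, 9.51 and 9.86 against 7.82. Syne4, a nesprin of the nuclear envelope, was 3.64-fold higher with an SE of 0.28 on its log2 difference of 1.86, and read 8.45, 8.26 and 8.83 against 6.65. For Plpp3 and Syne4 the distance to the parental mean was thus much the same in the 3 lines, while for Adh1 and Steap4 it was set more by vehicle 1.

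The other genes 2-fold higher in every line differed less in their nearest line, and those named next were chosen after their values were seen. Secreted products among them were Npy, the peptide neuropeptide Y, at 9.84, 11.79 and 10.16 in vehicle 1, 2 and 3 against a parental mean of 8.54; Ecm1, a matrix glycoprotein, at 12.92, 11.92 and 11.34 against 10.30; and Selenop, the selenium carrier, at 9.64, 8.49 and 8.34 against 6.995. Npy was highest in vehicle 2, and Ecm1 and Selenop in vehicle 1. Serping1, the inhibitor of complement C1, differed by 1.90, Tcn2, the carrier of vitamin B12, by 1.87, and Cpe, a carboxypeptidase of peptide hormones, by 1.45. Surface proteins included Mcam, an adhesion molecule, at 1.91, Antxr1, an anthrax toxin and collagen receptor, at 1.57 (SE 0.28), Fcgrt, the neonatal Fc receptor, at 1.77, and Sulf2, a sulfatase of heparan sulfate, at 2.06. Metabolic enzymes included Aldh2, a mitochondrial aldehyde dehydrogenase, at 1.68, Pdk2, a kinase that holds back pyruvate dehydrogenase, at 1.52, and Abat, which degrades GABA, at 1.995, or 1.33 as the mean of its probe sets. Hbp1, a repressor of cell cycle genes, differed by 1.32 with an SE of 0.41, and Castor2, a regulator upstream of mTORC1, by 1.62.

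**Figure D1:**
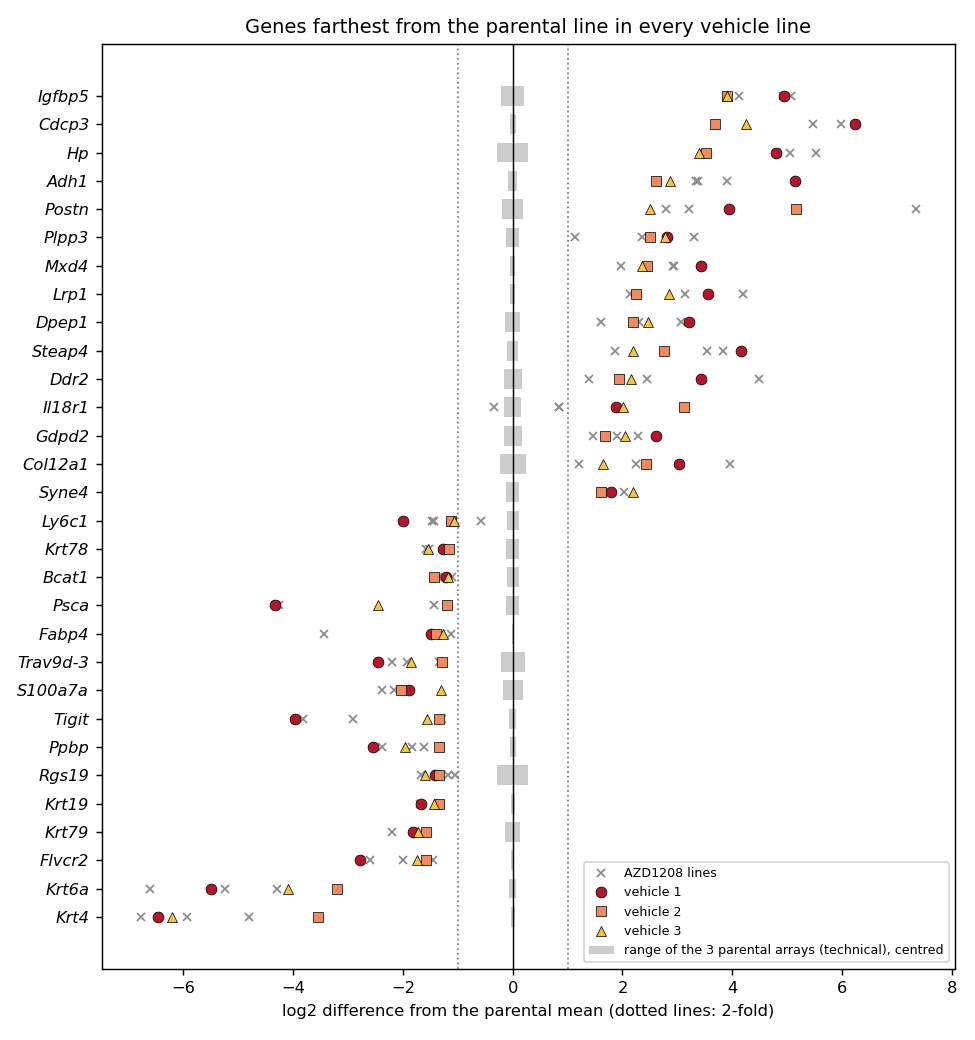
Log2 difference from the parental mean (x axis, dotted lines at 2-fold) of the 15 higher and 15 lower genes with the largest difference in the vehicle line nearest to it, 1 gene per row; coloured symbols are the 3 vehicle lines, crosses the 3 AZD1208 lines and grey bars the range of the 3 technical parental arrays. All vehicle symbols lie outside the dotted lines by the rule that chose the genes, and the lines lie close together for Plpp3 and Bcat1 and apart for Psca and Postn.

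Keratins stood lower. Krt4, a keratin of stratified inner epithelia, read 12.84, 12.77 and 12.76 on the parental arrays and 6.34, 9.24 and 6.59 in vehicle 1, 2 and 3. The parental arrays lay close together and bright, whereas all 3 lines lay far below, vehicle 2 the least, and the mean difference of -5.40 (SE 1.15) is a level 42.2 times lower. Krt6a, a keratin of activated and stem-like epithelium, read 11.73, 11.70 and 11.61 on the parental arrays and 6.18, 8.48 and 7.58 in vehicle 1, 2 and 3, 19.2-fold lower on average. Krt79 and Krt78, type II keratins, were 3.26- and 2.51-fold lower, at 6.56, 6.80 and 6.64 against a parental mean of 8.37 for Krt79 and 6.81, 6.93 and 6.54 against 8.08 for Krt78. Krt19, a keratin of luminal and ductal cells, was 2.79-fold lower, with 6.63, 6.94 and 6.87 in the lines and 8.29 in the parental line. These 5 keratins were below the parental mean by 2-fold or more in every line.

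Of 14 keratins tested, 0 were higher and 11 lower in all 3 vehicle lines, where 26.1% of all genes were lower, and their median difference was -0.614 against -0.0202 over all genes. Without vehicle 1, 1 of the 14 was higher and 12 were lower in both remaining lines, with a median of -0.865. Krt80 had a difference of -0.97 and Krt14, a basal keratin, -0.68. Krt18, the partner of Krt8 in luminal cells, differed by -0.28. Krt8 itself was mixed, at 8.53, 9.75 and 9.38 against 9.19, and Krt15, a basal keratin, ran from 10.42 in vehicle 1 to 6.83 in vehicle 3 around a parental mean of 9.31. The difference was thus shared by keratins of several layers, and was largest for Krt4 and Krt6a.

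**Figure D2:**
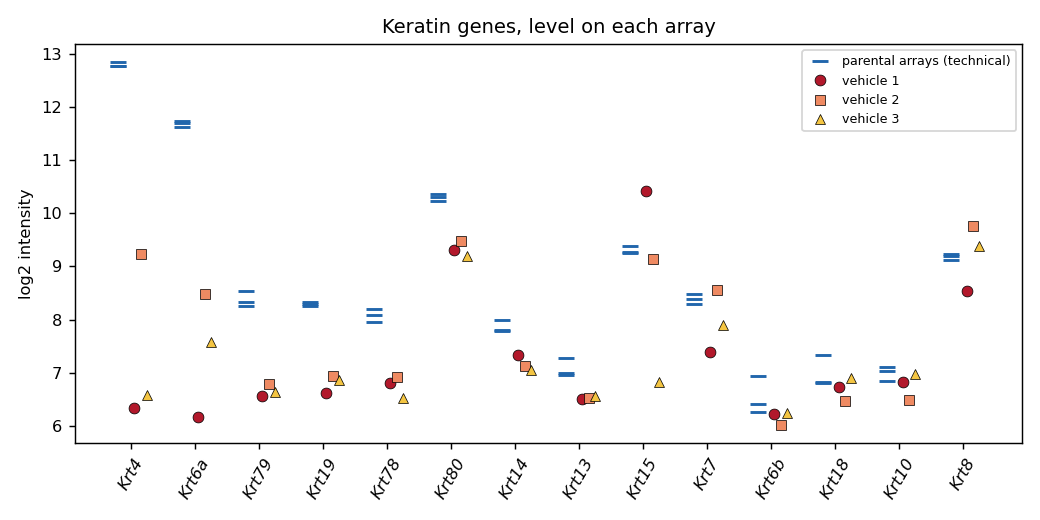
Log2 intensity (y axis) of the 14 tested keratins, ordered by mean difference, with dashes for the 3 technical parental arrays and symbols for the 3 vehicle lines. The vehicle symbols of Krt4 and Krt6a lie far below the dashes, those of Krt8 and Krt15 lie on both sides, and 11 of the 14 keratins have all 3 lines below the parental mean.

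The other genes 2-fold lower in every line had varied roles. Psca, a Ly6-type surface protein of prostate cells, read 11.42, 11.18 and 11.31 on the parental arrays and 6.98, 10.11 and 8.85 in vehicle 1, 2 and 3, 6.33-fold lower on average but with an SE of 1.38, as vehicle 2 lay nearest the parental arrays and vehicle 1 far from them. Ly6c1, of the same protein family, differed by -1.40 on the log2 scale and Ly6c2 by -1.29, whereas Ly6e was higher, at 1.42. Flvcr2, a haem and choline transporter, was 4.11-fold lower, at 7.47, 8.67 and 8.51 against 10.26. Bcat1, the cytosolic aminotransferase of branched-chain amino acids, was 2.43-fold lower, with the 3 lines close together at 6.67, 6.45 and 6.71 against 7.89 (SE 0.22).

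Several of these genes are known from other cells than epithelium. Ppbp, a chemokine of platelets, was 3.87-fold lower at 6.42, 7.63 and 7.001 against 8.97. Tigit, an inhibitory receptor of T cells, read 6.62, 9.25 and 9.01 against 10.58. Its difference of -2.29 became -1.45 without vehicle 1. Fabp4, a fatty acid binding protein of adipocytes, was 2.62-fold lower, and Rgs19, a regulator of G protein signalling, 2.74-fold. S100a7a, an epidermal S100 protein, was 3.35-fold lower, with lines at 7.61, 7.47 and 8.21 against 9.50. Trav9d-3, a T cell receptor segment, differed by -1.87 on its brightest probe set and by -0.57 as the mean of its probe sets. Of 8 tested lymphocyte markers, 0 were higher and 2 (25%) lower in all 3 lines, with a median of -0.0724. The shares of all genes were 25.4% higher and 26.1% lower.

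Transcripts of the PIM kinases, the targets of AZD1208, stood below the parental mean in the vehicle lines, and Myc did not. Pim1 read 10.41, 10.26 and 10.13 on the parental arrays and 8.87, 9.80 and 9.40 in vehicle 1, 2 and 3. All 3 lines were below the parental arrays, with a difference of -0.91 (SE 0.37, unadjusted p 0.042), or -0.53 as the mean of its 2 probe sets. Pim2 differed by -0.27 (SE 0.23) and Pim3 by -0.68 (SE 0.25), and every vehicle line was under the parental mean in both genes. Myc read 9.80, 9.75 and 9.79 on the parental arrays and 9.38, 10.34 and 9.92 in vehicle 1, 2 and 3; the vehicle lines lay on both sides of the parental mean, and the difference of 0.099 (SE 0.43) was 0.35 without vehicle 1 and -0.13 without vehicle 2. The array symbol is the mouse gene, and whether these probes also read the MYC transgene was not tested.

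Mxd4, a MAX partner that opposes MYC, read 7.65, 7.59 and 7.57 on the parental arrays and 11.03, 10.05 and 9.97 in vehicle 1, 2 and 3. Its 3 lines were far above the closely spaced parental arrays, a 6.70-fold difference (log2 2.74, SE 0.52). Of 13 tested genes of the MYC, MAX and MXD network, 5 (38.5%) were higher and 4 (30.8%) lower in all 3 lines. The shares of all genes were 25.4% and 26.1%. In vehicle 2 and 3 alone 7 of the 13 were higher and 4 lower, with a median of 0.107. Mxd1, a second MXD protein, differed by 0.60, and Mnt, a related repressor, by 0.49. Mga, a MAX partner of a larger repressor complex, differed by -0.95. The direction was thus not common to the MAX partners, and Mxd4 was the only tested member of this network 2-fold from the parental mean in every line.

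Genes known to respond to androgen were divided. Of 22 tested, 11 (50%) were higher and 6 (27.3%) lower in all 3 lines, where 25.4% of all genes were higher and 26.1% lower. In vehicle 2 and 3 alone 13 were higher and 6 lower, with a median of 0.298. Over all 3 lines the median was 0.205. That median was 0.0465 with no filter on dim genes and 0.558 with the lowest 50% of genes left out, so its size depends on the filter. Steap4 (above), Slc38a4, an amino acid transporter, and Mme, the surface peptidase neprilysin, were 2-fold higher in every line. Slc38a4 read 10.21, 8.05 and 9.69 against a parental mean of 6.63, and Mme 11.83, 10.31 and 9.68 against 8.49. Zbtb16, a zinc finger factor induced by androgen and glucocorticoid, read 10.52, 10.43 and 10.22 against 9.44. Fkbp5, a co-chaperone of steroid receptors and a classic androgen target, differed by only 0.29, and Tmprss2, a surface protease under androgen control, by -0.12. More of the 22 tested genes were thus above than below the parental cells, which were grown with DHT.

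Lineage factors and markers were mixed. In all 3 lines 25.4% of all genes were higher and 26.1% lower, and the counts here stand beside these shares. Of 27 prostate lineage transcription factors, 5 (18.5%) were higher and 6 (22.2%) lower in all 3 lines. In vehicle 2 and 3 alone 7 were higher and 7 lower, with a median of -0.0121. Sox4, a factor of progenitor cells, differed by 1.14, Klf6 by 0.72, Elf3, an epithelial ETS factor, by -0.61, and Trp63, the basal factor p63, by 0.56. Of 12 luminal markers, 1 was higher and 7 lower (median -0.295), with Krt19 and Psca among the lower ones (2 higher and 8 lower in vehicle 2 and 3 alone, median -0.200). The luminal median was -0.0903 with no filter on dim genes. Of 14 basal markers, 4 were higher and 4 lower (4 higher and 5 lower in vehicle 2 and 3 alone, median -0.0184), and of 14 neuroendocrine markers, 1 was higher and 5 lower (2 higher and 8 lower in vehicle 2 and 3 alone, median -0.130). Folh1, the prostate-specific membrane antigen, was 2-fold higher in every line with a difference of 2.15, and of 1.31 without vehicle 1.

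Genes of cell division stood lower in the vehicle lines, most of all in vehicle 1. Of 40 tested genes of DNA replication, most of them targets of the E2F factors, 0 were higher and 27 lower in all 3 lines, and of 39 genes of mitosis, 0 were higher and 31 lower, where 25.4% of all genes were higher and 26.1% lower. The median difference was -0.405 for the replication genes (-0.838, -0.276 and -0.183 in vehicle 1, 2 and 3) and -0.422 for the mitosis genes (-0.827, -0.213 and -0.226). Over all genes the medians of the 3 lines were -0.0313, -0.0301 and 0.042. Vehicle 1 was the lowest of the 3 lines for 36 of the 40 replication genes and 35 of the 39 mitosis genes. The share of all genes with vehicle 1 lowest was not counted. Vehicle 1 also had the most genes 2-fold lower over all genes, 444 against 39 in vehicle 2 and 46 in vehicle 3. In vehicle 2 and 3 alone, 4 replication genes were higher and 27 lower in both lines (median -0.228), and 0 mitosis genes were higher and 31 lower (median -0.219). None of these genes was 2-fold lower in every line.

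E2F factors bind words such as TTTCGCGC in genes of replication. The cell cycle homology region, TTTGAA or TTCGAA, marks genes of mitosis. Promoters are printed for genes lower in every vehicle line, taken in order of difference, that have a match before the start. Genes with a larger difference but no such match, Mcm3 among them, were passed over, so the printed matches were fixed by the choice. The 80 bases around a match are given 5′ to 3′ along the gene from RefSeq, build GRCm38.p6, with the match in capitals. GCGGGAAA, GCGCGAAA and TTCAAA are the reverse complements of the words TTTCCCGC, TTTCGCGC and TTTGAA, and CACGTG is the E-box.
Cdc6: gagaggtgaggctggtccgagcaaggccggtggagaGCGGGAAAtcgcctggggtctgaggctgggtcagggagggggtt
Orc1: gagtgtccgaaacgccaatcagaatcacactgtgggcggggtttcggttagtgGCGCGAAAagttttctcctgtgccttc
Mcm5: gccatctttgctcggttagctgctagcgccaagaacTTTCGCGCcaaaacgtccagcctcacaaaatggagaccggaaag
Kif2c: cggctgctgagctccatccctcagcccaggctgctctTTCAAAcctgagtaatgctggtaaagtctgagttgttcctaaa
Cdc20: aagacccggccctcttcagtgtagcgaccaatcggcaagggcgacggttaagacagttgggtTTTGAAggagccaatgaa
Bub1b: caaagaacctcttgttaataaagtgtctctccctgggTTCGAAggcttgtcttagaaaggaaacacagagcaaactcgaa
Nop2: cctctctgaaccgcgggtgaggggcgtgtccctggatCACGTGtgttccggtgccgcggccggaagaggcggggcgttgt
The stretches lie at chr11:98907977-98908056, plus strand (Cdc6), chr4:108579374-108579453, plus strand (Orc1), chr8:75109320-75109399, plus strand (Mcm5), chr4:117178833-117178912, minus strand (Kif2c), chr4:118437344-118437423, minus strand (Cdc20), chr2:118597986-118598065, plus strand (Bub1b) and chr6:125131786-125131865, plus strand (Nop2). All were taken from the window 250 bases before to 50 bases after the start of the gene. Searched on both strands, the E2F words TTTGGCGC, TTTCCCGC, TTTCGCGC and TTTGCCGC were in 16 of 41 promoters of the replication genes (39.0%), in 1 of 34 of the mitosis genes (2.94%), in 3 of 36 of the ribosome production genes (8.33%) and in 744 of all 32851 promoters (2.27%). The words TTTGAA and TTCGAA were in 29 of 34 promoters of the mitosis genes (85.3%), in 8 of 41 of the replication genes (19.5%), in 5 of 36 of the ribosome production genes (13.9%) and in 19.2% of all. The E-box CACGTG was in 6 of 36 promoters of the ribosome production genes (16.7%), in 5 of 41 of the replication genes (12.2%), in 2 of 34 of the mitosis genes (5.88%) and in 7.15% of all. A match is a description of letters only; a gene can have several promoters, and 33 of 40 replication and 32 of 39 mitosis genes were found in the promoter table.

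Among the replication genes, Mcm3, a subunit of the replicative helicase, read 11.80, 11.71 and 11.61 on the parental arrays and 10.02, 11.15 and 11.15 in vehicle 1, 2 and 3, a difference of -0.93 (SE 0.46). Cdc6, which loads that helicase at origins, read 9.21, 10.12 and 10.31 against a parental mean of 10.65. Orc1, of the origin recognition complex, differed by -0.68 and Mcm5, another helicase subunit, by -0.61. Chaf1b, a chromatin assembly factor, differed by -0.83 and Fen1, the flap endonuclease, by -0.78. In each of Mcm3 and Cdc6, vehicle 1 was lowest and the other two lines lay between it and the parental mean.

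Vehicle 1 was also the lowest line in the mitosis genes described here. Kif2c, a kinesin that dismantles microtubules at centromeres, read 10.85, 10.85 and 10.80 on the parental arrays and 9.41, 10.30 and 10.44 in vehicle 1, 2 and 3, a difference of -0.78 (SE 0.41). Aurka, a kinase of the spindle poles, differed by -0.73, Incenp, of the chromosomal passenger complex, by -0.66, and Cdca3, a trigger of mitotic entry, by -0.60. Cdc20, which activates the anaphase ubiquitin ligase, differed by -0.58, and Bub1b, of the spindle checkpoint that restrains it, by -0.48. Of 19 genes of the G1 phase, 5 (26.3%) were higher and 3 (15.8%) lower in all 3 lines. The shares of all genes were 25.4% and 26.1%. In vehicle 2 and 3 alone 7 of the 19 were higher and 4 lower, with a median of 0.0182. Cdkn2a, an inhibitor locus of the G1 kinases, differed by 0.69, Rbl2, a pocket protein that holds E2F factors, by 0.69, and Cdk2, a kinase of S phase entry, by -0.42.

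Replication-dependent histones, a list chosen after values were seen, stood with the replication genes: of 18 tested, 17 were lower and 0 higher in all 3 lines, with a median of -0.707 (medians -1.02, -0.595 and -0.338 in vehicle 1, 2 and 3). H2bc14 differed by -1.46, H2bc9 by -1.34, H1f5 by -1.23 and H2bc12 by -1.09. Genes of this family are near-identical in sequence, so a probe set can read several of them and single members are uncertain.

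Genes of ribosome production, a known MYC programme, were lower in part. Of 35 tested, 2 were higher and 20 lower in all 3 lines, where 25.4% of all genes were higher and 26.1% lower. Their medians were -0.813, -0.221 and -0.0613 in vehicle 1, 2 and 3. Vehicle 1 was the lowest line for 30 of the 35, a count without its share over all genes. In vehicle 2 and 3 alone 4 were higher and 20 lower, with a median of -0.144. Nop2, an rRNA methyltransferase, read 12.20, 12.13 and 12.09 on the parental arrays and 10.75, 11.76 and 11.97 in vehicle 1, 2 and 3, a difference of -0.64 (SE 0.51). Rrp12 and Rrp9, processing factors of pre-ribosomes, differed by -0.96 and -0.83, and Grwd1, a ribosome assembly protein, by -0.91. The ribosomal proteins themselves depended on vehicle 1: of 38, 3 were higher and 8 lower in all 3 lines, with a median of -0.0341, whereas 20 were higher and 8 lower in vehicle 2 and 3 alone, with a median of 0.0617. Of 29 proteasome subunits, 1 was higher and 15 lower, with a median of -0.155 (2 higher and 16 lower in vehicle 2 and 3 alone, median -0.0816). Psmb3, a core subunit, differed by -0.57.

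**Figure D3:**
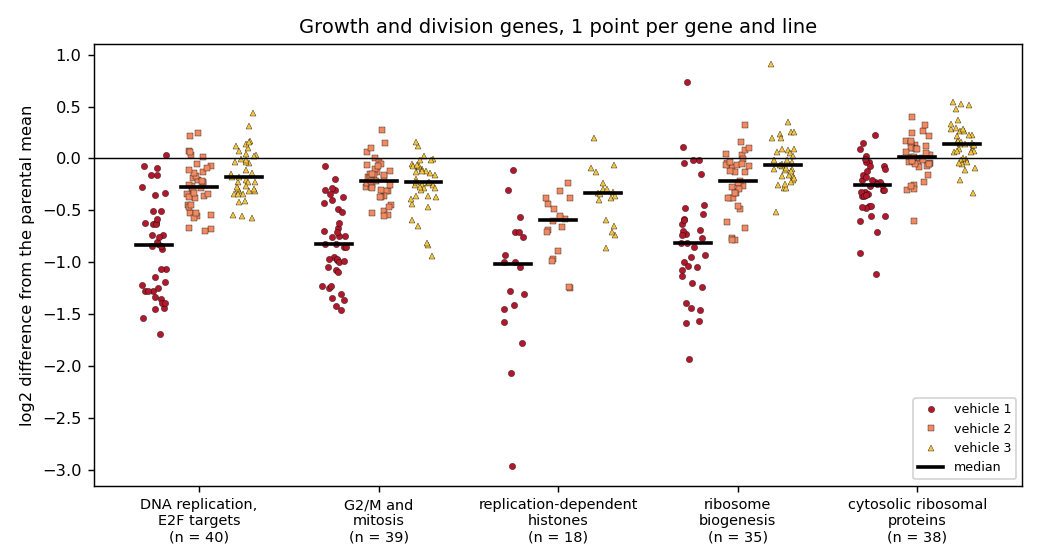
Log2 difference from the parental mean (y axis, 0 marked by a line) of the tested genes of DNA replication, mitosis, replication-dependent histones, ribosome production and the cytosolic ribosome, 1 point per gene and vehicle line, with bars for the medians. The median of vehicle 1 is the lowest of the lines in each group (-0.838 for replication genes, -0.827 for mitosis genes), and the medians of vehicle 2 and 3 are above it.

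Transcripts of stress defence and amino acid supply stood above the parental line for several members of each list. Nupr1, a stress-induced chromatin protein, differed by 2.08 and lay at 10.999, 9.33 and 8.21 against 7.43. Slc7a11, the cystine importer that feeds glutathione synthesis, read 9.09, 9.42 and 8.88 on the parental arrays and 11.38, 11.12 and 10.52 in vehicle 1, 2 and 3, 3.68-fold higher with a log2 SE of 0.40. Every vehicle line of Slc7a11 was above every parental array. Aldh1l2, a mitochondrial folate enzyme, read 7.55, 7.38 and 7.34 against 6.29, with an SE of 0.23 on its difference of 1.13. Ddit4, a stress-induced brake on mTOR, differed by 1.26.

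By list, of 28 tested targets of ATF4 and CHOP, the transcription factors of the integrated stress response, 13 were higher and 4 lower in all 3 lines (median 0.142), where 25.4% of all genes were higher and 26.1% lower; the counts were 14 higher and 5 lower in vehicle 2 and 3 alone, median 0.101. Quantile normalization gave a median of 0.0791. The classic targets Asns, asparagine synthetase, and Atf3 differed by -0.24 and -0.13, so the higher members were not the whole list. Of 26 genes of the NRF2, glutathione and thioredoxin list, 11 were higher and 2 lower (median 0.165; 17 higher and 3 lower in vehicle 2 and 3 alone, median 0.164). Gsta4 and Gstm1, glutathione transferases, differed by 1.21 and 0.97, and Gpx3, a secreted glutathione peroxidase, by 1.02; Srxn1, a sulfiredoxin under NRF2, differed by -0.43. Of 25 genes of the unfolded protein response, 12 were higher and 2 lower (median 0.150, by line 0.311, 0.139 and 0.00202). In vehicle 2 and 3 alone 12 were higher and 7 lower, with a median of 0.0623, so the low number of lower members depended on vehicle 1. Dnajb9, an endoplasmic reticulum co-chaperone, led them at 1.21, and Hspa5, the central chaperone BiP, differed by 0.28.

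Of 24 tested amino acid transporters, 9 (37.5%) were higher and 3 (12.5%) lower in all 3 lines, led by Slc38a4 at 2.68 and Slc7a11. The shares of all genes were 25.4% and 26.1%. In vehicle 2 and 3 alone 11 transporters were higher and 5 lower, with a median of 0.147. Of 25 enzymes of serine, one-carbon and branched-chain amino acid metabolism, 8 were higher and 5 lower (11 higher and 5 lower in vehicle 2 and 3 alone, median 0.0941). Shmt1 and Shmt2, which take a carbon unit from serine, differed by -0.60 and -0.58, whereas Acadsb, of branched-chain breakdown, differed by 0.76. Of 20 genes of glycolysis, 3 were higher and 8 lower (4 higher and 10 lower in vehicle 2 and 3 alone, median -0.107). Pfkl and Pfkp, phosphofructokinases, differed by -0.89 and -0.70, while Aldoc, an aldolase, differed by 0.88. Of 27 genes of cholesterol and fatty acid synthesis, 3 were higher and 8 lower (3 higher and 8 lower in vehicle 2 and 3 alone, median -0.0809), with Mvk, mevalonate kinase, at -0.69. Ndufa1, a subunit of respiratory complex I, differed by 1.69, but of the 39 genes of the respiratory chain 11 were higher and 9 lower (14 higher and 9 lower in vehicle 2 and 3 alone, median 0.0241).

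Targets of p53, the tumour suppressor that halts the cell cycle, were more often above than below: of 23 tested, 12 were higher and 3 lower in all 3 lines (median 0.210), where 25.4% of all genes were higher and 26.1% lower. In vehicle 2 and 3 alone 12 were higher and 6 lower, with a median of 0.106, and quantile normalization gave 0.114 over all 3 lines. Trp53inp1, a p53-induced nuclear protein, read 7.72, 7.59 and 6.59 against 5.59, and Btg2, an antiproliferative factor, 9.75, 8.97 and 8.74 against 7.78. Cdkn1a, the p21 inhibitor and best known target, differed by -0.19, and Tnfrsf10b, a death receptor, by -0.95. Of 15 members of the BCL2 family of apoptosis regulators, 8 were higher and 2 lower (10 higher and 3 lower in vehicle 2 and 3 alone, median 0.184). Bok, a killer member, differed by 0.92 and Bcl2, the survival member, by 0.78. The list thus held higher members of opposite function.

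Growth factor axes differed in how many members stood apart. Of 18 genes of the insulin-like growth factor axis, 7 were higher and 4 lower in all 3 lines, with a median of 0.0129 (8 higher and 6 lower in vehicle 2 and 3 alone, median -0.00448). Beside Igfbp5, the receptors Igf1r and Insr differed by 0.86 and 0.95, while the ligands Igf1 and Igf2 differed by -0.023 and -0.013. Pappa2, a protease of IGF binding proteins, was above the parental mean by 4.01 in vehicle 1 and at -0.29 and 0.26 in the other two. Of 33 genes of TGF-beta and BMP signalling, 14 were higher and 6 lower (16 higher and 7 lower in vehicle 2 and 3 alone, median 0.142), with the receptors Bmpr1b and Tgfbr3 at 1.33 and 1.02. Of 23 angiomotins and Hippo pathway genes, 13 were higher and 2 lower, where 25.4% of all genes were higher and 26.1% lower. Their median of 0.114 was 0.194 in vehicle 2 and 3 alone, where 14 were higher and 3 lower, and 0.039 after quantile normalization. None of them was 2-fold from the parental mean in every line.

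Acute phase and cytokine genes varied between lines. Saa3, a serum amyloid of inflamed epithelium, read 6.24, 6.55 and 6.65 on the parental arrays and 11.13, 11.12 and 7.46 in vehicle 1, 2 and 3; vehicle 1 and 2 were far above the parental arrays and vehicle 3 less so. Lcn2, the iron-siderophore binder lipocalin 2, read 7.12, 7.08 and 6.84 on the parental arrays and 10.001, 10.26 and 8.01 in vehicle 1, 2 and 3, with vehicle 1 and 2 again the highest, and vehicle 3 came just short of the 2-fold rule. Of 14 acute phase genes, 7 (50%) were higher and 3 (21.4%) lower in all 3 lines. The shares of all genes were 25.4% and 26.1%. In vehicle 2 and 3 alone 8 acute phase genes were higher and 3 lower, with a median of 0.282. Orm1, an acid glycoprotein, differed by -1.31, opposite to Hp and to Cp, the copper ferroxidase ceruloplasmin, at 1.31. Il18r1, the interleukin-18 receptor, read 6.04, 6.02 and 5.73 on the parental arrays and 7.81, 9.05 and 7.93 in vehicle 1, 2 and 3, 5.05-fold higher, with vehicle 2 the highest. Il1r1, the interleukin-1 receptor, differed by 1.23, and Il33, an alarmin of the same ligand family, by -1.25. Csf1, the macrophage growth factor, differed by 1.21, and Ifi27, an interferon-induced protein, by 1.23.

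Lines made from tumours in mice can carry host cells, so markers of other cell types were read beside the matrix genes. Of 16 tested fibroblast markers, 3 (18.8%) were higher and 5 (31.2%) lower in all 3 lines, with a median of -0.0638. The shares of all genes were 25.4% and 26.1%. In vehicle 2 and 3 alone 4 fibroblast markers were higher and 7 lower, with a median of -0.0929. All 19 fibroblast markers with a value summed to a log2 level of 128.8 in the parental line and 133.5 to 137.4 in the vehicle lines. Each sum in this paragraph includes members below the dim limit. Postn, Pdgfra (difference 1.72) and Fbln2 (1.51) were the higher members. The parental mean of Postn, 5.36, was below the dim limit of 5.81. Postn thus passed that limit only through its level in the lines from recurrent tumours. Dcn, Lum and Fap were the 3 of 19 members with a value whose means lay below the dim limit. Their vehicle lines read 5.32, 5.47 and 5.83 for Dcn, 4.52, 4.40 and 4.45 for Lum and 4.69, 4.84 and 4.84 for Fap. The remaining 16 passed the limit, as counted above. The 14 endothelial markers with a value summed to 86.4 and to 83.1 to 86.2, and of 12 tested, 0 were higher and 7 lower. The 19 myeloid markers with a value summed to 117.6 and to 116.1 to 121.1, and of 13 tested, 2 were higher and 5 lower. Ptprc, the surface protein of all white blood cells, was below the dim limit at 5.12, 5.05 and 4.84 in the vehicle lines and a parental mean of 4.85. Lymphocyte markers summed to 70.6 and to 67.3 to 71.3, and muscle and adipose markers to 82.5 and to 78.3 to 82.6.

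In the cells' own contacts with the matrix, of 23 integrins and laminins 9 were higher and 2 lower in all 3 lines (median 0.218; 9 higher and 3 lower in vehicle 2 and 3 alone, median 0.163), with Lamb2, a laminin chain, at 1.21. The shares of all genes were 25.4% higher and 26.1% lower. Of 26 collagens and collagen enzymes, 4 (15.4%) were higher and 12 (46.2%) lower, so Col12a1 stood against the count of its list. In vehicle 2 and 3 alone the collagen counts were 4 higher and 12 lower, with a median of -0.0831. Plat, tissue plasminogen activator, differed by 1.66 and Adam8, a sheddase, by -0.82. Of the 24 matrix proteases and inhibitors 7 were higher and 7 lower (29.2% each), near the shares of all genes. In vehicle 2 and 3 alone 7 of them were higher and 10 lower, with a median of -0.0528.

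**Figure D4:**
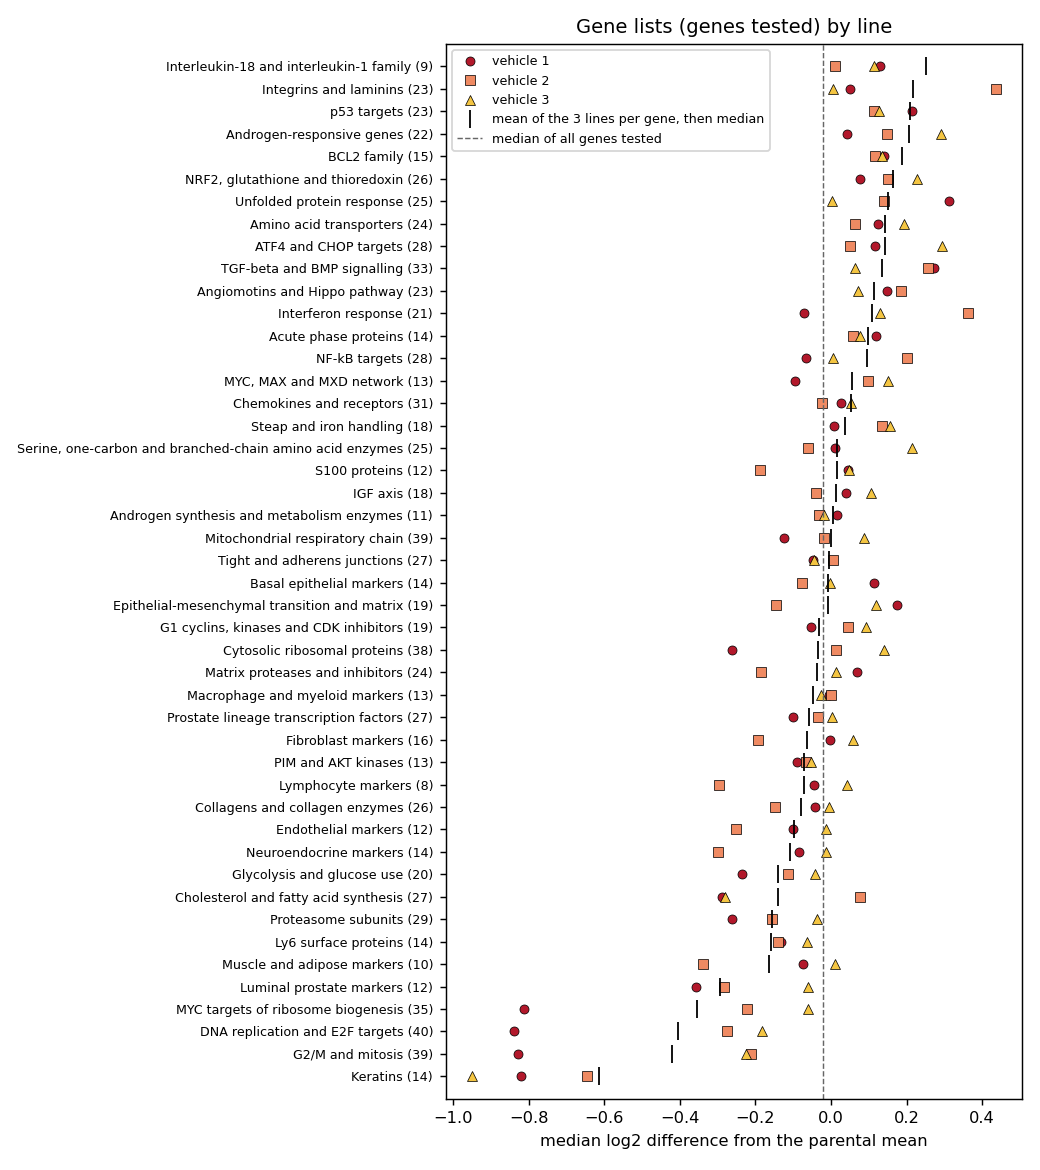
Median log2 difference from the parental mean (x axis) over the tested members of each of the 46 gene lists described, with the number tested in brackets, 1 symbol per vehicle line, a bar for the median of the mean of the 3 lines and a dashed line at the median of all genes tested (-0.0202). Keratins, mitosis, replication and ribosome production lie to the left, with vehicle 1 far below the other lines in the last 3.

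Neighbouring genes on chromosome 2 stood high together in 2 of the vehicle lines. In the gene order of RefSeq GRCm38.p6, 14 tested genes from Dut to Ap4e1 had a median log2 difference of 1.82 in vehicle 2 (3.53-fold) and 1.72 in vehicle 3 (3.29-fold), against 0.18 in vehicle 1. In vehicle 2 and in vehicle 3, 12 of the 14 genes were at least 0.8 above the parental mean. The 5 tested genes on each side, Spata5l1 to Ciao1, had medians of -0.0457 and 0.0841 in these lines. The stretch was chosen after its values were seen. Its ends are the outermost genes at least 0.8 above the parental mean in both vehicle 2 and vehicle 3. The step at its edges is therefore partly set by that rule. Usp8, a deubiquitinase of endosomes, differed by 0.24, 2.29 and 2.41 in vehicle 1, 2 and 3, and Sppl2a, a membrane protease, by 0.94, 2.28 and 2.47. Ap4e1, an adaptor of vesicle transport, differed by -0.18, 2.10 and 2.38. Dut, which removes dUTP before replication, differed by -1.05, 0.94 and 1.21. Slc27a2, a fatty acid activator near the dim limit, and Usp50 were the 2 genes at the parental level, with differences of 0.084, -0.17 and -0.11 and 0.13, -0.011 and 0.16.

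Of the genes 2-fold higher in every line, 3 lie in this stretch: Secisbp2l, a selenoprotein factor, Fgf7, the keratinocyte growth factor that acts on epithelium, and Trpm7, a magnesium channel with a kinase. Fgf7 read 8.17, 8.32 and 8.14 on the parental arrays and 9.68, 10.14 and 9.99 in vehicle 1, 2 and 3. AZD1208 3 had a median of 1.38 over the 14 genes of the stretch (2.60-fold), and AZD1208 1 and 2 had 0.768 and 0.191. Copy number was not measured on these arrays, and its part in the result was not tested. On chromosome 16, a stretch of 266 tested genes from its start (Zfp263 to 1700119H24Rik) was bounded by the values of vehicle 1. It spans the runs whose median over 25 genes was at least 0.35 above the parental mean there. Its high level in vehicle 1 was thus fixed by the choice. The median there was 0.333, with 197 genes above the parental mean, against 0.00762 for the remaining 198. In vehicle 2 and 3 the medians of the 266 were -0.128 and -0.0136.

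**Figure D5:**
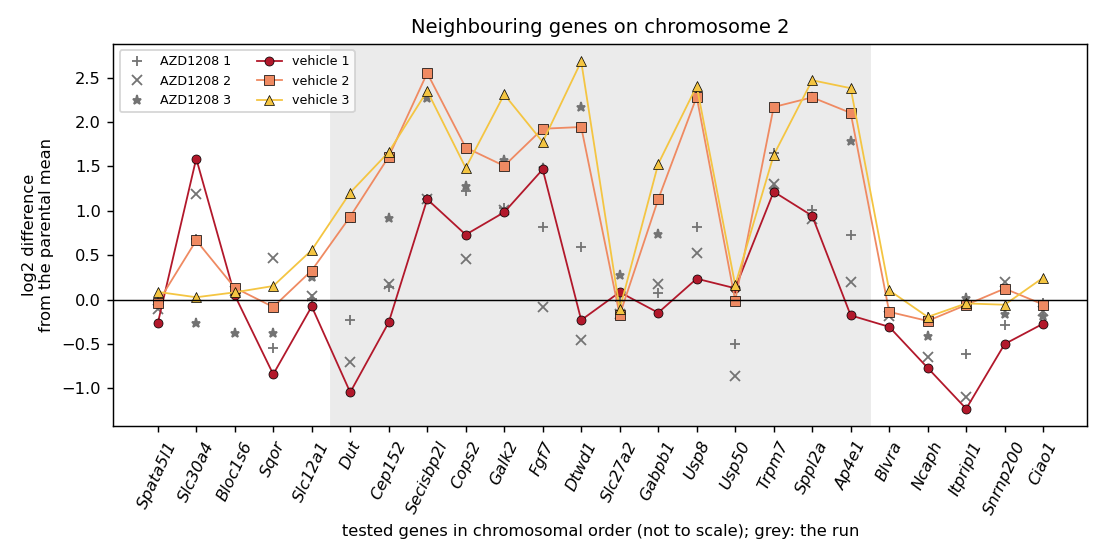
Log2 difference from the parental mean (y axis) of neighbouring tested genes on chromosome 2 in chromosomal order (x axis, not to scale), with joined symbols for the vehicle lines, grey signs for the AZD1208 lines and grey shading for the 14 genes from Dut to Ap4e1 between 5 genes on each side. Vehicle 2 and 3 lie high over all shaded genes but Slc27a2 and Usp50, and near 0 on most genes beside them.

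The vehicle lines differed most among themselves in genes that were high in vehicle 1. Glrb, the beta subunit of the glycine receptor, read 11.86, 4.65 and 5.24 in vehicle 1, 2 and 3 against a parental mean of 4.73. Prg4, the joint lubricant lubricin, read 11.65, 5.58 and 7.13 against 5.69, and Dpt, the matrix protein dermatopontin, 11.25, 6.03 and 6.15 against 6.04. Both matrix genes were also high in AZD1208 2, at 10.62 and 10.48. Fmo2, a flavin monooxygenase, read 12.08, 6.33 and 7.59 against 6.17 and 11.01, 10.76 and 6.73 in the AZD1208 lines, and Ucma, a cartilage matrix protein, 11.60, 6.39 and 6.99 against 6.56. Without vehicle 1 the mean differences of Glrb, Prg4, Dpt, Fmo2 and Ucma were 0.22, 0.67, 0.05, 0.80 and 0.13. These 5 genes were named for their spread between lines, so the spread itself is a description.

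Vehicle 1 was the farthest line for 52 of the 64 higher genes and 11 of the 15 lower ones. It also had the most genes at least 2-fold from the parental mean, 7.48% against 1.75% and 1.27% in vehicle 2 and 3. The share of all genes with vehicle 1 farthest was not counted. With vehicle 2 and 3 alone, 87 genes (0.56%) were 2-fold higher in both lines and 17 (0.109%) 2-fold lower. Without vehicle 2 the counts were 95 and 28, and without vehicle 3 they were 144 and 26, as fewer lines had to pass. Some values depended on vehicle 1: without it the difference was 1.22 for Anxa8, an annexin, 1.39 for Clec2d, a C-type lectin, 1.36 for Copz2, a vesicle coat subunit, and 1.62 for Cyp2b10, a drug-metabolising cytochrome P450, against 1.86, 2.39, 2.16 and 2.49 with all lines.

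The AZD1208 lines share the parental control, so their values are set beside those of the vehicle lines without reading a likeness from them. Igfbp5 read 12.31, 12.15 and 11.36 in the 3 AZD1208 lines, Hp 12.26, 11.55 and 11.77, Mxd4 10.52, 10.55 and 9.57 and Krt4 6.85, 6.01 and 7.99. Il18r1 read 6.77, 5.59 and 6.77 there against 7.81, 9.05 and 7.93 in the vehicle lines. AZD1208 1 and AZD1208 3 had the same deposited value for it. In the same limma fit, 0 of 15526 genes (0%) differed between the vehicle and AZD1208 lines after Benjamini-Hochberg adjustment, and 81 had an unadjusted p under 0.05. The difference of Il18r1 was 1.89 (SE 0.43, limma unadjusted p 0.0028). Il18r1 was named for its high vehicle lines, so this p-value draws on values that chose the gene. None of the differences described above can therefore be called particular to the lines grown without the inhibitor.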

How the data were processed

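Total RNA of the cultured lines was labelled with biotin and put on Affymetrix Mouse Gene 2.0 ST arrays, per the labels' protocols. The authors deposited log2 intensities for each probe set, made with oligo, per the submitters' processing notes; its version and the background correction, normalization and summary are not given in these sources. Without detection calls, differences of dim genes may come out too small, and precision is limited by the number of arrays. All per-sample columns were used.

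Gene names came from the platform annotation and Entrez identifiers of RefSeq GRCm38.p6: of 41345 probe sets, 23521 had 1 symbol, 1814 had several, which named none, and 16010 were unlisted. Of those with 1 symbol, 193 had an identifier outside that table. The brightest probe set stood for each of the 1082 genes with several, and the lowest 30% of 22180 genes by mean were left out, which left 15526. No build is named for the array, so only the printed promoters carry coordinates.

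The 3 parental arrays, technical replicates, were averaged to 1 sample. With limma 3.58.1 in R 4.3.3, lmFit and eBayes were fitted to 7 samples with group as the only term (4 residual and 3.36 prior degrees of freedom), and Benjamini-Hochberg adjustment ran over all genes tested. The lone parental sample is assumed to vary like the lines. The fit was tested on simulated data. Genes and lists were chosen with earlier results of these data known. Named were the 15 genes in each direction, 2-fold in every line, with the largest difference in their nearest line (predicted genes, olfactory receptors and small RNAs passed over), Myc and the Pim genes, up to 4 members per list with the largest difference and any member 2-fold in every line, and the 5 genes of largest spread between the vehicle lines. Others were named after their values were seen.

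Replicate numbers are shared between vehicle and AZD1208 lines, with no stated pairing. The deviations of lines of equal number from their group means correlated at 0.146, 0.118 and 0.532 for numbers 1, 2 and 3, though vehicle 1 correlated more with AZD1208 2, at 0.264. Alternatives were another filter, quantile normalization, centring, the mean of a gene's probe sets, array weights, a variance trend, vehicle and parental samples only, the parental arrays as 3 samples, a stricter reference and leaving out each array in turn.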

Additional observations from a re-analysis of the deposited data

Results flagged for a closer look

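Probe sets with no gene name in the annotation used here were outside the comparisons above. Of 7487 such probe sets above the dim limit, 41 were at least 2-fold from the parental mean in every vehicle line (0.548%), 37 higher and 4 lower. Among named genes the shares were 0.412% higher and 0.0966% lower. What these probe sets read was not tested.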

How the results depend on the processing

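The count of 0 genes past limma was the same under every alternative that kept the parental line as 1 sample, with smallest adjusted p-values from 0.303 (array weights) to 1. With the parental arrays as 3 separate samples, which takes their technical spread for that between lines, 39 genes passed as higher and 14 as lower (smallest adjusted p 0.00375). The 2-fold counts of 64 higher and 15 lower became 49 and 20 after quantile normalization and 45 and 14 against the most extreme parental array. Leaving out 1 vehicle line or 1 parental array gave 65 to 144 higher and 15 to 28 lower genes; without vehicle 3 there were 144 higher, without vehicle 2 there were 28 lower and without vehicle 3 there were 26 lower, since fewer lines had to pass. Quantile normalization moved the median of all genes from -0.0202 to -0.0546 and centring to -0.00944.

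No paired analysis was possible because the parental arrays are 1 sample, which shares no number with 2 or more lines. Between vehicle and AZD1208 lines, the replicate block left 0 genes (169 at an unadjusted p under 0.05) and changed no call.

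Signs turned in 8 genes and 3 list medians, and the cause was not tested. Leaving out 1 sample in turn, the difference ranged from -0.95 to 0.18 for Cd14, -0.024 to 0.64 for Cldn1, -0.30 to 0.11 for Hsd17b12, -1.13 to 0.099 for Itgb3, -0.13 to 0.35 for Myc, -0.19 to 0.015 for Nkg7, -0.015 to 2.14 for Pappa2 and -0.48 to 0.017 for Rpl30; without vehicle 1 it turned in all but Myc and Nkg7, and without vehicle 2 in those. In Pappa2 the difference of 1.33 rested on vehicle 1. List medians turned to -0.0232 for the interleukin-18 and interleukin-1 family and 0.0545 for myeloid markers with no filter on dim genes, and to 0.0443 for prostate lineage transcription factors with the lowest 50% of genes left out. That filter also raised the medians of the acute phase proteins to 1.28 and of TGF-beta and BMP signalling to 0.349. The filters use the mean over 7 samples, 6 of them lines from recurrent tumours. A gene dim in the parental line can therefore pass by being high in those lines, so a stricter filter can raise list medians by selection. How far it did so was not tested. Dim probe sets also limit what can be seen, as they may understate differences.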

Other observations

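Other lines of neighbouring genes differed by cell line. Runs of neighbours whose running median over 7 tested genes was at least 0.8 from the parental mean numbered 21 higher and 15 lower in vehicle 1, 4 and 1 in vehicle 2, and 1 and 1 in vehicle 3. They include families of like genes, such as keratins, and their cause was not tested.

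All 3 vehicle lines lay on one side of the parental mean and all 3 AZD1208 lines on the other for 60 of 15526 genes. Of these, 0 are among the 15 higher, the 15 lower and the 5 most variable genes named, Myc and the Pim genes. Members named from the gene lists were not checked for this. The difference between the 2 groups passed the test for 0 genes, as given above.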
